A study of Homo sapiens with 4 samples.

Results

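The genes described here encode 5 ligands of the tumour necrosis factor (TNF) superfamily: CD70, TNFSF9, TNFSF10, TNFSF15 and TNFSF4. They were chosen by symbol out of the 42113 gene models in the files, with their pattern in these libraries already known, so their own levels and differences are given as a description and no test was made on them. Of the 5, CD70, TNFSF9, TNFSF10 and TNFSF15 reached a mean of at least 30 normalized counts over the 4 libraries, the level above which a gene is called measured here. TNFSF4 did not. In all, 12742 genes were measured. Where 4 values are listed for a gene, they are in 1 fixed order: control cells untreated, LIMA1 shRNA cells untreated, control cells with nutlin-3a, LIMA1 shRNA cells with nutlin-3a.

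TNF superfamily ligands are mostly trimers on the cell surface, which engage receptors of the TNF receptor superfamily on a neighbouring cell. The receptors recruit TRAF adaptors and switch on NF-kB signalling, or, where they carry a death domain, can start the caspases of programmed cell death. CD70 is the ligand of CD27, and TNFSF9 (4-1BB ligand) that of TNFRSF9 (4-1BB); both pairs costimulate T cells, and both ligands are known mainly from antigen-presenting cells. TNFSF10 (TRAIL) triggers death through the receptors TNFRSF10A and TNFRSF10B, TNFSF15 (TL1A) signals through TNFRSF25 (DR3), and TNFSF4 (OX40 ligand) through TNFRSF4 (OX40). CD70 is also known on carcinoma cells of several kinds, and several death receptor genes are known targets of p53.

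The cells were A549, an established line from a human lung cancer. All of them carried a stable lentiviral shRNA, so the controls were infected too: either a negative control shRNA or an shRNA against LIMA1, the gene of the actin-binding protein EPLIN. Nutlin-3a, a compound that frees p53 from its inhibitor MDM2, was added to each of these 2 lines at 10 µM or left out, and RNA was taken 24 h later. The sample titles write si where the protocols write shRNA, and the sources used here do not say whether each line was a pool of infected cells or a clone. The comparison asks how the 2 lines differ with and without activated p53. Each group was 1 library, so each difference compares 2 libraries. An effect of the LIMA1 shRNA cannot be told apart from any other difference between the 2 cell lines, and in bulk RNA more expressing cells cannot be told apart from more RNA per cell.

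The libraries held 15.2 to 16.7 M fragments, and 1 fragment was worth 0.943 to 1.07 normalized counts. LIMA1 stood at 416 and 866 normalized counts in the untreated and nutlin-3a control libraries and at 68.3 and 133 in the LIMA1 shRNA libraries, which is 16.4% (95% interval 12.6% to 21.2%) and 15.4% (12.6% to 18.6%) of the control. The p53 targets MDM2 (1844 and 1857 untreated, 27580.3 and 33982 with nutlin-3a) and CDKN1A (1066 and 1178 untreated, 34078 and 48106 with nutlin-3a) were high in both nutlin-3a libraries. The summed level of 6 epithelial marker genes was 149025 to 179616 normalized counts, most of it KRT8, KRT18 and KRT7. The sum hides members that moved. EPCAM stood at 229, 82.1, 111 and 31.1, lower in the LIMA1 shRNA line and lower with nutlin-3a. KRT19 went the other way, at 1278, 2061, 3420 and 5840. The 6 alveolar markers together reached 28.7 to 47.6, with SFTPA1 and SFTPB at 0 in every library. A summed 3.96 to 5.96 normalized counts were found for 8 T and NK cell markers, and CD3D, CD3E, CD3G and KLRD1 were at 0 in every library. Intervals throughout are exact 95% intervals of the fragment counts. They cover counting error only, since the reads carry no molecular identifiers, and they say nothing of the spread between cultures.

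The sequences just upstream of the ligand genes are shown because the genes differed in pattern while sharing a family. They are the 250 bases before the annotated start from RefSeq (GRCh38.p14, another build than the hg19 named for the deposited values), 5′ to 3′ on the gene's strand, and 4 of the 5 ligand genes had an entry; CD70 had none. Capitals mark matches to the motifs searched on both strands: TATAAA (known as the TATA box), GGGCGG (GC box), TGACTCA (AP-1, which on the opposite strand reads TGAGTCA), TGATGNAAT (ATF4 composite element), TGACGTCA (CRE), and, by name alone, the p53 half-site and the kB site. TNFSF9 lies at chr19:6530776-6531025 (plus strand), TNFSF15 at chr9:114792531-114792780 (minus strand) and TNFSF10 at chr3:172523431-172523680 (minus strand).
TNFSF9: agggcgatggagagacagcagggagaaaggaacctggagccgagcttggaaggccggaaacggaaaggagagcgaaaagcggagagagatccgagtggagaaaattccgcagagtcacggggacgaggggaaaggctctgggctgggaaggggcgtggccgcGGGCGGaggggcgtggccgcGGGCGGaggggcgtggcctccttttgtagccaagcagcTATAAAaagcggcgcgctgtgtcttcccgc
TNFSF15: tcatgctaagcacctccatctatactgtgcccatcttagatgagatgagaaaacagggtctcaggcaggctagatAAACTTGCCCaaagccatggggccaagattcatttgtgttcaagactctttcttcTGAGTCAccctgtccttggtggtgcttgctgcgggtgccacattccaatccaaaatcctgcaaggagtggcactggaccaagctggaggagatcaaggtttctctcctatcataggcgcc
TNFSF10: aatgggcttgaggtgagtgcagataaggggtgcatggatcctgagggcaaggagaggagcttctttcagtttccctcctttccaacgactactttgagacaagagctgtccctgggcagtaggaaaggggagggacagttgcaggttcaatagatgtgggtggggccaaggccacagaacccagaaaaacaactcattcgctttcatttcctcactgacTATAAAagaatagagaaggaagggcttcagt

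The TNFSF9 window held TATAAA 30 to 25 bases before the start and GGGCGG at 88 to 83 and at 68 to 63 bases before it. It was also the richest in G and C of the 4, at 64.4% with 23 CG dinucleotides, against a median of 58% and 11 over 35116 promoters. The longest string that occurred 3 times in it was AGGGGCGTGGCC, looked for after the sequence was seen. Over all promoters, that of TNFSF9 included, 2 held at least 2 copies of it. TNFSF10 had TATAAA at 31 to 26 bases before the start, in a window of 49.6% G and C with 2 CG dinucleotides. TNFSF15 held neither TATAAA nor GGGCGG; it matched TGAGTCA at 120 to 114 and the p53 half-site at 175 to 166 bases before the start. None of the motifs matched the TNFSF4 window. For comparison, TATAAA was found in 10.7% of all promoters, GGGCGG in 42.6%, the AP-1 motif in 4.20%, TGATGNAAT in 0.888%, TGACGTCA in 1.65%, the p53 half-site in 5.57% and the kB site in 9.96%. These matches describe letters in a window; no binding was measured.

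CD70 stood at 31.1 normalized counts in untreated control cells, 241 in untreated LIMA1 shRNA cells, 127 in control cells with nutlin-3a and 670.0 in LIMA1 shRNA cells with nutlin-3a. The 4 counting intervals (21.4 to 43.7, 212 to 274, 106 to 151 and 618 to 725) did not overlap, and the order was the untreated control lowest and LIMA1 shRNA cells with nutlin-3a highest. Against the control line, CD70 was higher in the LIMA1 shRNA line by 2.92 on the log2(normalized count + 1) scale without treatment, a ratio of 7.76 (5.38 to 11.5). With nutlin-3a that difference was 2.39, a ratio of 5.27 (4.35 to 6.43). Nutlin-3a against no treatment gave a higher level in each line too. In control cells the difference was 2.0, a ratio of 4.08 (2.77 to 6.19), and in LIMA1 shRNA cells 1.47, a ratio of 2.77 (2.39 to 3.23). CD70 was 21.5-fold (15.2 to 31.6) higher in the LIMA1 shRNA library with nutlin-3a than in the untreated control library.

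TNFSF9 stood at 80.1 normalized counts in untreated control cells, 363 in untreated LIMA1 shRNA cells, 329 in control cells with nutlin-3a and 1298 in LIMA1 shRNA cells with nutlin-3a. The library altered only by the shRNA and the one altered only by nutlin-3a overlapped in their counting intervals (327 to 402 and 294 to 366), unlike those of CD70; the untreated control (64.0 to 99.1) lay below both and the remaining library (1226 to 1373) above. Between the lines, TNFSF9 was higher with the LIMA1 shRNA by 2.17 untreated, a ratio of 4.53 (3.57 to 5.81), and by 1.98 with nutlin-3a, a ratio of 3.95 (3.50 to 4.48). With nutlin-3a it was higher by 2.02 in control cells, a ratio of 4.10 (3.22 to 5.27), and by 1.83 in LIMA1 shRNA cells, a ratio of 3.57 (3.18 to 4.03). All 4 ratios thus lay between 3.57 and 4.53, and the span from the lowest to the highest library was 16.2-fold (13.0 to 20.4).

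**Figure D1:**
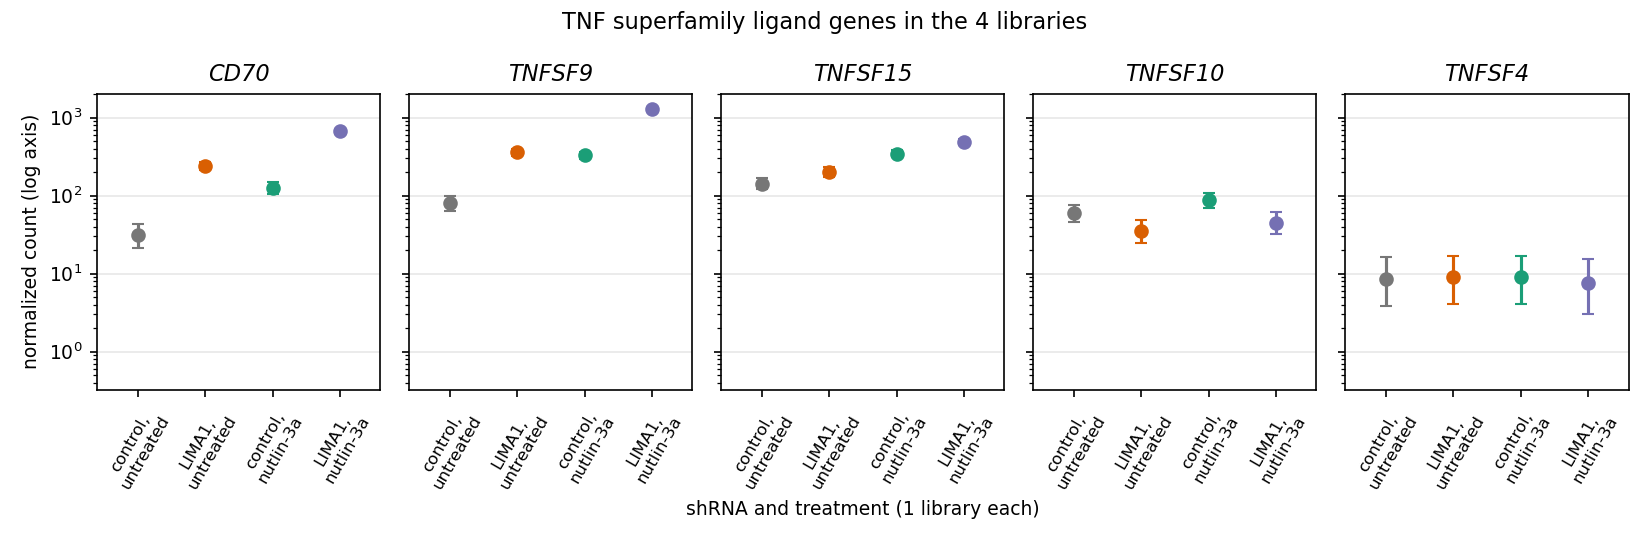
Normalized count (log axis) of the 5 ligand genes in the 4 libraries, named by shRNA and treatment; points are single libraries and bars are exact 95% counting intervals. CD70 goes from 31.1 to 670.0 and TNFSF9 from 80.1 to 1298, while TNFSF4 stays between 7.50 and 8.93.

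The size of the nutlin-3a response in LIMA1 shRNA cells divided by that in control cells was 0.679 (0.436 to 1.04) for CD70 and 0.872 (0.660 to 1.14) for TNFSF9. Both counting intervals include 1, so a smaller response in the LIMA1 shRNA line was not detectable at this depth for either gene. On the log2 scale these response differences were -0.53 and -0.19, and with a pseudocount of 30 they were 0.00 and 0.05.

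The balance between both leading ligands differed by library. The ratio of TNFSF9 to CD70 fragments was 2.58 (1.70 to 3.98) in untreated control cells and 2.59 (2.10 to 3.20) in control cells with nutlin-3a, but 1.5 (1.28 to 1.78) and 1.94 (1.76 to 2.14) in the untreated and nutlin-3a LIMA1 shRNA cells. The ratio was lower in the LIMA1 shRNA line in both treatments, but each time its interval overlapped that of the control library by a narrow margin. Per kilobase of transcript, which allows genes to be compared, CD70 (913 bases) stood at 34.1, 264, 139 and 734 normalized counts. TNFSF9 (1665 bases) stood at 48.1, 218, 197 and 779.7 per kilobase. Per kilobase, TNFSF9 was thus above CD70 in the control libraries (1.41 and 1.42 times), below it in untreated LIMA1 shRNA cells (0.825 times) and close to it in the last library (1.06 times). Percentiles of the per-kilobase level were taken among all 18293 genes with a length, measured or not. CD70 went from percentile 47.3 in untreated control cells to 91.6 in LIMA1 shRNA cells with nutlin-3a. TNFSF9 went from 50.5 to 92.1 between the same libraries.

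TNFSF15 stood at 142 normalized counts in untreated control cells, 201 in untreated LIMA1 shRNA cells, 346 in control cells with nutlin-3a and 488 in LIMA1 shRNA cells with nutlin-3a. Both nutlin-3a libraries lay above both untreated ones. With nutlin-3a it was higher by 1.28 in control cells, a ratio of 2.43 (2.01 to 2.97), and by 1.28 in LIMA1 shRNA cells, a ratio of 2.43 (2.05 to 2.88). Between the lines the differences were 0.49 in each treatment, with ratios of 1.41 (1.14 to 1.75) and 1.41 (1.22 to 1.62), under the size used for a call. The ratio of the 2 responses was 0.998 (0.768 to 1.29). Per kilobase of its 6687 bases the gene reached 21.3 to 72.9 normalized counts. The library with the most TNFSF15 held it at percentile 56.3 of all genes with a length, far below CD70 and TNFSF9 there.

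TNFSF10, the TRAIL gene, went the other way between the lines. It stood at 59.4 normalized counts in untreated control cells, 35.6 in untreated LIMA1 shRNA cells, 87.4 in control cells with nutlin-3a and 45.0 in LIMA1 shRNA cells with nutlin-3a. Both LIMA1 shRNA libraries lay below both control libraries. The differences between the lines were -0.72 untreated, a ratio of 0.600 (0.387 to 0.918), and -0.94 with nutlin-3a, a ratio of 0.515 (0.348 to 0.753), and neither reached the size of a call. With nutlin-3a the level was higher by 0.55 in control cells, a ratio of 1.47 (1.05 to 2.07), and by 0.33 in LIMA1 shRNA cells, a ratio of 1.26 (0.790 to 2.03), whose interval includes 1. These values rest on 36 to 88 fragments per library.

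TNFSF4 gave 8.48, 8.91, 8.93 and 7.50 normalized counts, or 7 to 9 fragments each. All 4 of its counting intervals overlapped, and at this depth the ratio between the untreated lines could lie anywhere from 0.369 to 2.98. At 2.16 to 2.57 normalized counts per kilobase it was the lowest of the 5 ligand genes in every library.

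**Figure D2:**
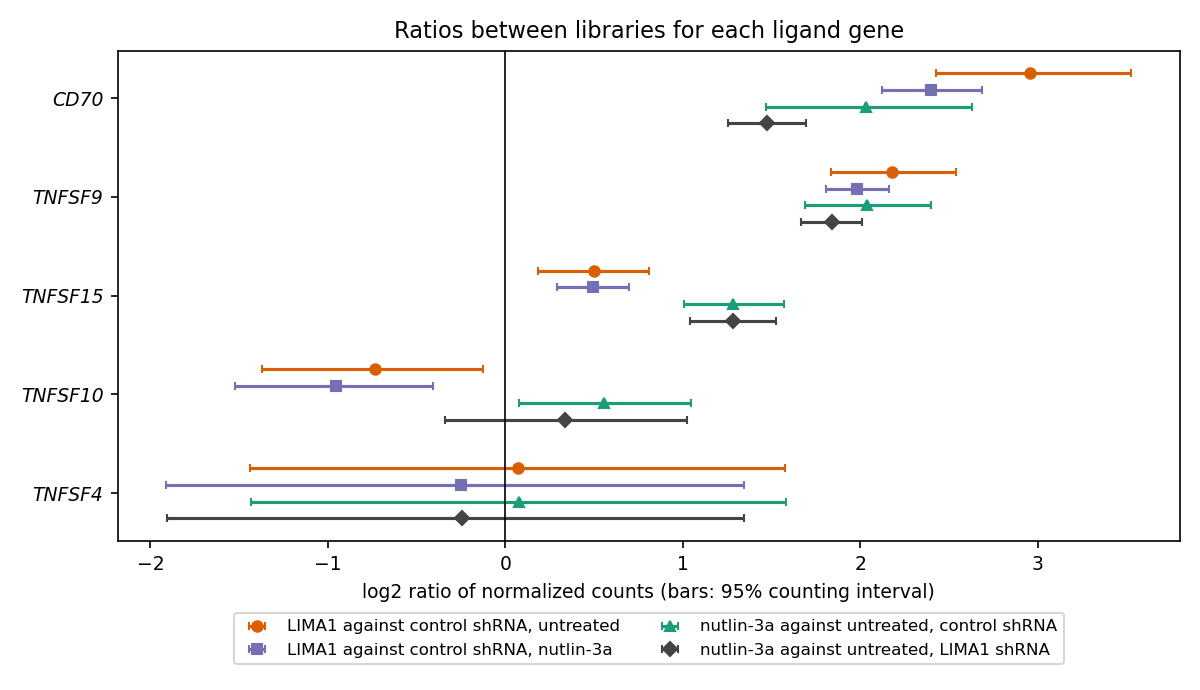
Log2 ratio of normalized counts between libraries for each ligand gene, with exact 95% counting intervals as bars. All 4 ratios of CD70 and of TNFSF9 lie above 1 on this axis; those of TNFSF15 do so for nutlin-3a only, TNFSF10 lies below 0 between the lines, and the bars of TNFSF4 all cross 0.

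A call required a log2 difference of at least 1 in either direction. Of the 4 measured ligand genes, CD70 and TNFSF9 were called higher in the LIMA1 shRNA line, both untreated and with nutlin-3a, where 1.04% and 1.26% of all measured genes were called higher. CD70, TNFSF9 and TNFSF15 were called higher with nutlin-3a in each line, beside 5.54% of measured genes in control and 7.29% in LIMA1 shRNA cells. No ligand gene of the 5 was called lower, beside 2.05% and 1.94% of measured genes between the lines and 5.64% and 6.08% with nutlin-3a. None passed the size in the response difference, where 1.27% and 0.816% of measured genes did so upward and downward. Since the genes were chosen from these contrasts, nothing is read from these counts, and the contrasts share libraries: the untreated control library enters both the untreated line difference and the control response.

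Counted from the highest measured gene, CD70 ranked 13 and TNFSF9 26 in the untreated line difference, and 17 and 29 in that with nutlin-3a. In the nutlin-3a differences they ranked 196 and 190 in control cells and 463 and 291 in LIMA1 shRNA cells. They ranked nearer the top between the lines, where fewer genes were called higher (132 and 161) than with nutlin-3a (706 and 929). The differences of TNFSF9 itself were alike, at 2.17 and 1.98 between the lines and 2.02 and 1.83 with nutlin-3a. Since both genes were chosen from these contrasts, nothing is read from the ranks. The number of genes called higher with the LIMA1 shRNA in both treatments was 57, and 599 were called higher with nutlin-3a in both lines. Only 14 genes (0.11% of those measured) were called higher in all 4 contrasts. They were CD70, TNFSF9, ALOX5, CES1, DCP1A, DHRS9, FBN2, FLRT2, GALNT18, IFI16, SERPINB3, SHC2 and the noncoding models lnc-IGFL1-1 and lnc-IGFL3-2, the 12 besides the ligands being named after their values were seen. The values of DCP1A were not whole fragments, so it may share reads with another gene model.

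**Figure D3:**
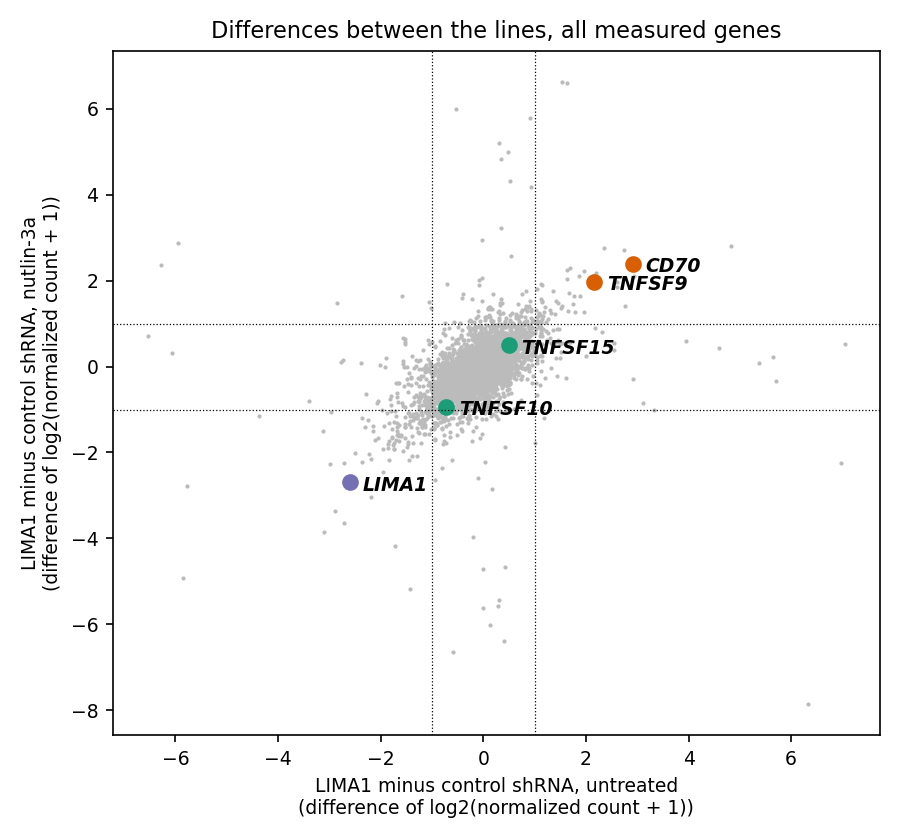
Difference between the LIMA1 and control shRNA lines on log2(normalized count + 1), untreated on the x axis and with nutlin-3a on the y axis, for all measured genes (grey) and the measured ligand genes and LIMA1 (coloured); dotted lines mark the size of 1. CD70 (2.92, 2.39) and TNFSF9 (2.17, 1.98) lie at the upper right, TNFSF15 and TNFSF10 inside the dotted lines.

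The receptors through which these ligands act were mostly scarce in A549. CD27, the receptor of CD70, was at 0 in all 4 libraries, where 3 fragments (2.83 to 3.22 normalized counts) is the limit that a count of 0 allows. TNFRSF9, the receptor of TNFSF9, stood at 1.89, 1.98, 0.993 and 3.22 normalized counts, at or under that limit. The TNFSF4 receptor TNFRSF4 had 0.990 in untreated LIMA1 shRNA cells and 0 elsewhere. The TNFSF15 receptor TNFRSF25 had 4.71, 0, 2.98 and 2.14, and its soluble decoy TNFRSF6B was listed at about 0 in both untreated libraries and at 7.51 and 4.67 with nutlin-3a, values that were not whole fragments. CD70, TNFSF9 and TNFSF4 were thus read in cells with few or no reads of their own receptors.

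The receptors of TNFSF10 were the exception. TNFRSF10B (DR5), a death receptor and known p53 target, stood at 2912 normalized counts in untreated control cells, 4097 in untreated LIMA1 shRNA cells, 8903 in control cells with nutlin-3a and 12029 in LIMA1 shRNA cells with nutlin-3a; with nutlin-3a it was higher by 1.61 and 1.55 in control and LIMA1 shRNA cells. TNFRSF10A (DR4), the other death receptor, gave 263, 345, 629 and 840.4 and was higher by 1.25 and 1.28. TNFRSF10D, a decoy receptor without a working death domain, gave 906, 583, 2661 and 2719 and was higher by 1.55 in control and by 2.22 in LIMA1 shRNA cells. The ratio of its 2 responses was 1.59 (1.41 to 1.79), a counting interval above 1, while the level in the 2 nutlin-3a libraries was nearly the same.

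Of the 10 receptors of the 5 ligands, 3 were measured, and all 3 were called higher with nutlin-3a in each line, beside 5.54% of all measured genes in control and 7.29% in LIMA1 shRNA cells. Between the lines none was called, as for most measured genes, and the medians were 0.39 and 0.42 untreated and with nutlin-3a. The nutlin-3a medians were 1.55 in both lines, beside -0.02 in both over all measured genes. The remaining TNFSF10 receptors were low: TNFRSF10C at 4.95 to 15.0 normalized counts, with some values not whole, and the soluble TNFRSF11B (osteoprotegerin) at 22.6, 35.6, 11.9 and 36.4. TNFSF10 itself was short of a call with nutlin-3a (0.55 and 0.33) in libraries where its 2 death receptors and TNFRSF10D were all called higher.

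The other 13 ligands of the family were mostly at or near 0. Only 3 of them were measured, and 5 (TNF, LTA, CD40LG, FASLG and TNFSF18) were at 0 in all 4 libraries. None of the 3 measured was called higher in any of the 4 contrasts. Over all measured genes, 1.04% and 1.26% were called higher between the lines and 5.54% and 7.29% with nutlin-3a. With 3 genes, no call is near these shares, and the unmeasured ligands were not assessed. TNFSF12 (TWEAK) stood at 129 normalized counts in untreated control cells, 61.4 in untreated LIMA1 shRNA cells, 167 in control cells with nutlin-3a and 80.4 in LIMA1 shRNA cells with nutlin-3a. It was called lower in the LIMA1 shRNA line, by -1.06 untreated and -1.04 with nutlin-3a, the same direction as TNFSF10. Of all measured genes, 2.05% and 1.94% were called lower there. The TNFSF12 value in untreated control cells was not a whole number of fragments, and with a pseudocount of 10 neither difference reached the size of 1. TNFSF13 (APRIL) gave 76.4, 78.2, 123 and 106, and EDA (ectodysplasin) 49.96, 51.5, 45.7 and 62.2, with no call in any contrast.

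Among the 19 other TNF receptors, 10 were measured. FAS, the Fas death receptor and a known p53 target, gave 160.2 and 164 normalized counts in untreated control and LIMA1 shRNA cells and 2103 and 2573 with nutlin-3a, so it was higher by 3.71 and 3.96. EDA2R, the receptor of ectodysplasin A2, gave 243, 271, 1704 and 1941 and was higher by 2.80 and 2.84. These were the 2 of 10 called higher with nutlin-3a in each line, where 5.54% and 7.29% of all measured genes were. None was called higher between the lines, a count near the 1.04% and 1.26% of all measured genes. Called lower between the lines were 1 of 10 untreated and 2 of 10 with nutlin-3a, beside 2.05% and 1.94% of all measured genes. With so few genes, nothing is read from these counts. CD40, the receptor of CD40 ligand, was called lower in the LIMA1 shRNA line by -1.29 untreated and -1.43 with nutlin-3a, at 59.4, 23.7, 114 and 41.8 normalized counts. EDAR, the ectodysplasin A1 receptor, gave 46.2, 23.7, 47.6 and 13.9 and was called lower with nutlin-3a only, by -1.70, with -0.93 untreated. With a pseudocount of 30 the untreated CD40 difference (-0.73) and that of EDAR (-0.82) did not reach the size of a call. The medians over the 10 were 0.10 and 0.23 between the lines and 0.14 and 0.15 with nutlin-3a.

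**Figure D4:**
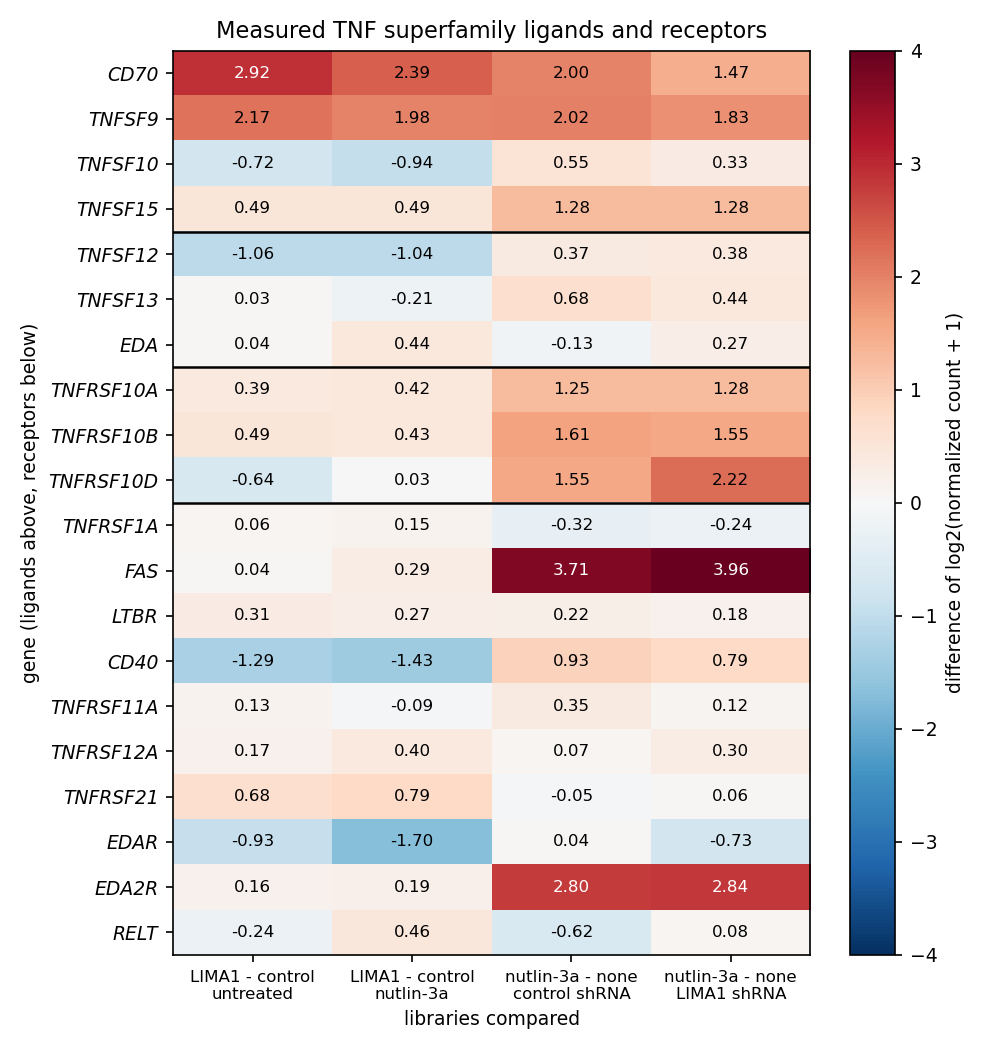
Differences of log2(normalized count + 1) in the 4 contrasts for the 20 measured TNF ligands and receptors, written in each cell and coloured from blue (lower) to red (higher). CD70 and TNFSF9 are the only 2 at 1 or above in all 4 columns, while TNFSF15, FAS, EDA2R and the TNFRSF10 receptors are so in the nutlin-3a columns.

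The adaptors that carry signals from these receptors were called between the lines about as rarely as measured genes in general. Of 22 genes 21 were measured; untreated, 1 was called lower (TRAF1), beside 2.05% of all measured genes, and with nutlin-3a none was called. The medians were 0.02 and 0.05, beside 0.02 and 0.03 over all measured genes. TRAF1, an adaptor of 4-1BB and CD40 signalling, gave 36.8, 14.8, 57.6 and 55.7 normalized counts, so the untreated difference of -1.25 rests on low counts. With nutlin-3a, SIVA1, a CD27-binding protein, was called lower in both lines by -1.18 and -1.42, at 979, 645, 432 and 240.1 normalized counts. In LIMA1 shRNA cells 4 of the 21 adaptor genes were called higher with nutlin-3a, beside 7.29% of all measured genes: TRAF1 (1.84), TRAF4 (1.32), the initiator caspase gene CASP10 (1.06) and CFLAR (1.14), an inhibitor of caspase-8, some of whose values were not whole fragments. In control cells none of the 21 was called higher, beside 5.54% of all measured genes. All 4 of these genes were higher there too, short of a call: TRAF4 narrowly, at 0.98, CASP10 at 0.84, CFLAR at 0.67 and TRAF1 at 0.63.

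Subunits and targets of NF-kB, the pathway downstream of CD27, 4-1BB and DR3, were listed too, and 19 of 22 were measured. Between the lines 1 was called higher and 1 lower untreated, and none higher and 1 lower with nutlin-3a, with medians of 0.07 and 0.09. Over all measured genes, 1.04% and 1.26% were called higher and 2.05% and 1.94% lower, with medians of 0.02 and 0.03, so these counts are near the background. The chemokine gene CXCL3 was the one called higher (1.04, at 72.6 and 150.4 normalized counts), a call that was lost under upper-quartile scaling (0.99). CCL2, a monocyte chemokine gene, was lower by -1.77 and -1.45, at 56.6, 15.8, 45.7 and 16.1. With nutlin-3a the medians were -0.16 in control and -0.24 in LIMA1 shRNA cells, beside -0.02 in both over all measured genes. No gene was called higher, beside 5.54% and 7.29% of all measured genes in control and LIMA1 shRNA cells. In the same order 1 and 3 of the 19 were called lower, beside 5.64% and 6.08%. With so few genes, nothing is read from these counts. CXCL8, the interleukin-8 gene, was called lower in both lines (-1.34 and -1.39). The CCL2 and CXCL8 calls were lost with a pseudocount of 30, since both genes are low. CXCL2 (-1.52) and CXCL3 (-1.72) were called lower in LIMA1 shRNA cells; whether their response differed between the lines was not tested.

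Other surface ligands that T and NK cells read gave a reference for CD70 and TNFSF9 beyond their own family. Of 29 genes 18 were measured, and between the lines 2 were called higher untreated and none with nutlin-3a, beside 1.04% and 1.26% of all measured genes. The medians were -0.04 and 0.09. ULBP1, a stress-induced ligand of the NK cell receptor NKG2D, stood at 61.3, 279, 29.8 and 56.8 normalized counts. Untreated it was as far above the control as TNFSF9 (2.17), but with nutlin-3a it was lower, by -1.02 in control cells (-0.96 under upper-quartile scaling, short of a call) and by -2.28 in LIMA1 shRNA cells. VTCN1 (B7-H4), an inhibitory ligand of the B7 family, gave 13.2, 32.7, 43.7 and 66.5 and had differences of 1.25 and 0.59 between the lines and 1.65 and 1.0 with nutlin-3a. These rest on 14 to 62 fragments, and with a pseudocount of 30 none of them reached 1. C10orf54 (VISTA), another inhibitory ligand, gave 566, 546, 1232 and 1395, so it was higher with nutlin-3a by 1.12 and 1.35 and not between the lines. BTN3A1 (1.11) and the NKG2D ligand ULBP2 (1.38) were called higher with nutlin-3a in LIMA1 shRNA cells.

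Markers of the cell types that normally carry CD70 and TNFSF9 were low but not flat across the libraries. The summed level of 5 B cell markers was 18.9, 25.7, 57.6 and 77.2 normalized counts, with MS4A1 at 0 in all. That of 8 myeloid and dendritic cell markers was 137, 108, 227 and 191, with CD1C at 0 in all and PTPRC, the pan-leukocyte marker, at 1 fragment in 1 library. The B cell sum was, like CD70 and TNFSF9, lowest in the untreated control and highest in LIMA1 shRNA cells with nutlin-3a. The myeloid sum was lower in LIMA1 shRNA than in control cells in both treatments, the opposite of CD70 and TNFSF9. The part of these cell markers in the levels of both ligands was not tested.

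CD70 and TNFSF9 are next to each other on chromosome 19 in the RefSeq gene order (GRCh38.p14), so their surroundings were read as well. Of the 10 protein-coding genes on each side of the pair, 19 of 20 were in the files and 13 were measured. None of the 13 was called between the lines in either treatment or with nutlin-3a in control cells. Since 1.04% to 2.05% of all measured genes were called in 1 direction between the lines, 0 of 13 is near the background. With nutlin-3a in control cells, 5.54% of all measured genes were called higher and 5.64% lower. In LIMA1 shRNA cells 1 of the 13 was called higher with nutlin-3a and none lower, beside 7.29% and 6.08% of all measured genes. With 13 genes, nothing is read from these counts. The 13 had differences from -0.40 to 0.49 untreated and from -0.28 to 0.91 with nutlin-3a between the lines. Their medians were 0.09 and 0.11 between the lines and 0.03 and 0.15 with nutlin-3a. TUBB4A, a tubulin gene and the neighbour of TNFSF9, had differences of 0.29, 0.22, -0.24 and -0.31 in the 4 contrasts. TNFSF14 (LIGHT), a further ligand of the family and the neighbour of CD70, had only 3, 1, 6 and 11 fragments and was not measured. The complement gene C3, named after its values were seen, was the single neighbour called in any contrast: it gave 2059, 2676, 3487 and 6545 normalized counts and was higher with nutlin-3a in LIMA1 shRNA cells by 1.29.

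**Figure D5:**
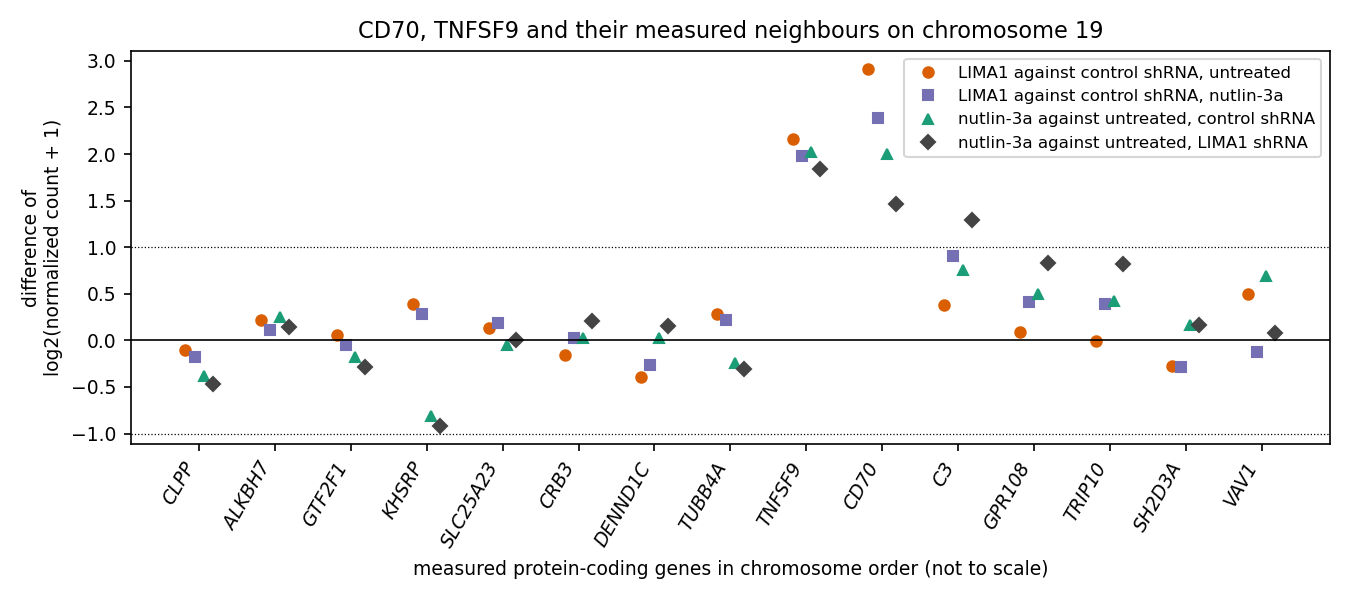
Differences of log2(normalized count + 1) in the 4 contrasts for CD70, TNFSF9 and the 13 measured protein-coding genes around them, in chromosome order and not to scale; dotted lines mark the size of 1. CD70 and TNFSF9 lie at 1.47 to 2.92, and of the others 1 point, C3 at 1.29, passes 1.

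Around the other 3 ligand genes, some neighbours passed the size between the lines while the ligand did not. Measured neighbours numbered 11 for TNFSF4, 11 for TNFSF10 and 14 for TNFSF15. Of all measured genes, 1.04% and 1.26% were called higher between the lines, untreated and with nutlin-3a, and 2.05% and 1.94% lower. The neighbours below are named because they were called. TNC, the gene of the matrix protein tenascin-C near TNFSF15, was higher in the LIMA1 shRNA line by 2.75 untreated and 2.72 with nutlin-3a, at 18.9, 133, 9.93 and 70.8 normalized counts. MEGF9, also near TNFSF15, was lower by -1.25 and -1.32, at 2108, 889, 2558 and 1025. DNM3, a dynamin gene near TNFSF4, was higher by 1.52 and 1.36, at 197, 567, 174 and 447. NAALADL2, near TNFSF10, was lower by -1.87 and -1.09, at 42.4, 10.9, 69.5 and 32.2, the same direction as TNFSF10. These NAALADL2 values are low, and with a pseudocount of 30 neither difference reached the size of a call (-0.82 and -0.68). Of the 14 measured neighbours of TNFSF15, 4 were called higher with nutlin-3a in each line, beside 5.54% of all measured genes in control and 7.29% in LIMA1 shRNA cells.

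The genes whose 4-library pattern lay nearest to the ligands were found by the root mean square distance between log2(normalized count + 1) profiles, each centred on its own mean, over genes with a mean of at least 150. With only 4 libraries this describes these samples and no more. Among the genes above that mean, TNFSF9 was the nearest to CD70 and CD70 the nearest to TNFSF9, at a distance of 0.318. For CD70 there followed IFI16 (0.610), FBN2 (0.703), SESN2 (0.725), NEFL (0.739), AHCYL2 (0.831), GALNT18 (0.842) and TMC7 (0.866). For TNFSF9 they were IFI16 (0.319), FBN2 (0.432), NEFL (0.459), lnc-AP000769.1-2 (0.554), HSPB8 (0.573), SESN2 (0.577) and FBN1 (0.585). NEFL and lnc-AP000769.1-2 had some values that were not whole fragments. Measured genes with lower means were left out, so the pairing of CD70 and TNFSF9 holds under this filter only. FLRT2, called higher in all 4 contrasts, was among those left out, at a mean of 52.2. Its differences were 2.61 and 1.86 between the lines and 2.43 and 1.68 with nutlin-3a, a pattern close to that of both ligands.

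IFI16, a DNA sensor of innate immunity, stood at 49.96, 139, 172 and 479 normalized counts. Its differences were 1.45 and 1.48 between the lines and 1.76 and 1.78 with nutlin-3a, so it shared the near-equal steps of TNFSF9 at a smaller size between the lines. FBN2, the gene of the matrix protein fibrillin-2, gave 502, 1105, 1320.2 and 3817 and was higher by 1.14 and 1.53 between the lines and by 1.39 and 1.79 with nutlin-3a. SESN2, a stress-response gene and known p53 target, gave 129, 756, 1035 and 1357 and shows where likeness over 4 values ends: it was higher in the LIMA1 shRNA line by 2.54 untreated but by 0.39 with nutlin-3a, a response difference of -2.15, against -0.53 for CD70 and -0.19 for TNFSF9.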

How the data were processed

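RNA sequencing of 4 A549 libraries was read from per-gene tables. The authors deposited 1 signal value per gene; the values themselves show fragment counts that were divided by a single size factor in each library and not by gene length, and they are called normalized counts here. Per the submitters' processing notes, Cuffnorm 2.2.1, Bowtie2 2.0.12 and bcl2fastq 1.8.3 were used in roles that are not stated, on build hg19. No source used here gives the gene annotation. In each library 85.5% to 86.3% of low values lay within 0.1 of a whole number of fragments, too few for a count test. Values that were not whole may be split between gene models.

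Groups were taken from the sample titles. Each group has 1 library, which leaves no spread to test against, so p-values are not given. Differences are between log2(normalized count + 1) values, a scale that understates differences of low genes. Measured genes had a mean of at least 30 (12742 of 42113), and the size for a call was a log2 difference of at least 1. Ratios and levels have exact Clopper-Pearson or Poisson 95% intervals of fragment counts. Per-kilobase levels used GENCODE 29 principal transcript lengths, found for 18293 genes. Neighbours and promoters came from RefSeq, on another build than the files. The genes and lists were chosen with earlier results of these data known. Genes named were the 5 ligands, LIMA1, MDM2 and CDKN1A, all receptors of the 5 ligands, and up to 6 called members per list and contrast. Neighbours called between the lines, some called with nutlin-3a, and the 8 genes nearest in pattern to CD70 and to TNFSF9 were named too. Other pseudocounts, scalings, filters and sizes were tried. The scripts were tested on simulated counts and used Python 3.11.15, numpy 2.4.6, pandas 2.3.3, scipy 1.17.1 and matplotlib 3.10.9.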

Additional observations from a re-analysis of the deposited data

How the results depend on the processing

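No library could be left out, and no paired analysis was possible because each group has 1 library. Across 3 other pseudocounts and 3 other scalings, 148 of 150 differences of the 5 ligand genes stayed within the 95% counting interval of the reported value, and no called one changed sign. Small response differences that were not called did: with a pseudocount of 30, that of CD70 went from -0.53 to 0.00, that of TNFSF9 from -0.19 to 0.05, and that of TNFSF15, reported at -0.0017, to 0.04. With a pseudocount of 30, CD70 was higher in the untreated LIMA1 shRNA line by 2.15 rather than 2.92, and with nutlin-3a in control cells by 1.36 rather than 2.0; a pseudocount about as large as its 31.1 normalized counts in the untreated control shrinks such differences by construction. That pseudocount also ended calls of the low genes TNFSF12, CD40, EDAR, TRAF1, CASP10, CXCL3, CXCL8, CCL2, ULBP1, ULBP2, VTCN1, BTN3A1 and NAALADL2 in at least 1 contrast. At a log2 size of 2, CD70 was called between the lines in both treatments but not with nutlin-3a, and TNFSF9 in the untreated line difference and with nutlin-3a in control cells. Over all measured genes, the number called higher between the lines went from 27 at that size to 988 with a mean of at least 1 untreated (132 reported) and from 28 to 1235 with nutlin-3a (161), and the number higher in all 4 contrasts from 1 to 60 at a 1.5-fold size (14). With nutlin-3a it went from 195 to 2402 in control cells (706) and from 246 to 2917 in LIMA1 shRNA cells (929). The numbers called lower went from 38 to 1459 (261) and 39 to 1326 (247) between the lines, and from 314 to 1626 (719) and 302 to 1861 (775) with nutlin-3a; in the response difference, calls went from 29 to 1683 upward (162) and from 29 to 1371 downward (104). Of 490 counts over gene lists and neighbours under these settings, 119 moved by over 1.5 times. Fragment counts limit TNFSF4 (7 to 9) and TNFSF10 (36 to 88) most.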
